A study of Mus musculus with 6 samples.

Results

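The receptors through which blood-forming cells read cytokines were followed in bone marrow of Cbx2-/- mice. Cbx2 is a chromodomain subunit of Polycomb repressive complex 1, which holds developmental genes silent. The set holds 9 genes, taken by symbol: Kit, Flt3, Il7r, Epor, Csf3r, Csf2ra, Csf2rb, Il3ra and Il6ra. It was proposed with earlier results of these data known, so the choice was not blind to them. All 9 were found among the 22838 genes of the deposited expression table, and all 9 were among the 12006 genes that reached at least 1 FPKM in at least 3 of 6 libraries. FPKM is a fragment tally divided by the length of the transcript and by the size of the library, so levels of different genes can be set side by side. Cbx2-/- mice (3 libraries, group mean body weight 4.0 g) were set against wild type mice (3 libraries, group mean body weight 12.3 g). Both groups were of 129/C57BL/6 strain, 3 weeks old and without a stated treatment, and RNA came from marrow of the tibia and femur. How the Cbx2 allele was made, and whether each library is 1 animal, are not described in the labels, which count 3 animals a genotype.

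Cytokine receptors tell blood-forming cells to survive, divide and mature. Kit and Flt3 are receptor tyrosine kinases of stem and progenitor cells that bind stem cell factor and Flt3 ligand. The others belong to the type I cytokine receptor family, whose signalling chains carry JAK kinases on their cytoplasmic tails and pass the signal to STAT factors. Each marks a part of blood formation: Epor is needed for red cell precursors, Il7r for B and T cell precursors, and Csf3r for neutrophil output. Csf2ra and Il3ra are the ligand-binding chains for GM-CSF and IL-3 and pair with the common beta chain Csf2rb, while Il6ra pairs with gp130, the product of Il6st.

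The promoters of Kit, Csf3r, Csf2ra and Epor are shown because 3 of these genes rose in Cbx2-/- marrow and Epor had its lower values there. They run from 250 bases before to 50 bases after the annotated start of each gene (RefSeq, GRCm38.p6), at chr5:75574737-75575036 on the plus strand for Kit, chr4:126024409-126024708 on the plus strand for Csf3r, chr19:61228369-61228668 on the minus strand for Csf2ra and chr9:21963527-21963826 on the minus strand for Epor. Each is written 5′ to 3′ on the strand of its gene, and capitals mark matches, on either strand, to short motifs of blood cell transcription factors.
Kit: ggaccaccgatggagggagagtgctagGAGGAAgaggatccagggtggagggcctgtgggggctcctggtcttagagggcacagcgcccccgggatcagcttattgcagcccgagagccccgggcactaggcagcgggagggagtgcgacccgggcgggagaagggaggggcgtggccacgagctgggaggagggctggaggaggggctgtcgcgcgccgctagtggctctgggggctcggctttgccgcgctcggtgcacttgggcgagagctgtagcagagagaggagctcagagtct
Csf3r: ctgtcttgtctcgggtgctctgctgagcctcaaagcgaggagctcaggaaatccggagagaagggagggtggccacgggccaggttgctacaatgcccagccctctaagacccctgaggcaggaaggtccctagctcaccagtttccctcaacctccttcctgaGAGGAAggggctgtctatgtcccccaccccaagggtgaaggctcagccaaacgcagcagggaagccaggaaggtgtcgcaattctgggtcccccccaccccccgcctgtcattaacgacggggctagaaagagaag
Csf2ra: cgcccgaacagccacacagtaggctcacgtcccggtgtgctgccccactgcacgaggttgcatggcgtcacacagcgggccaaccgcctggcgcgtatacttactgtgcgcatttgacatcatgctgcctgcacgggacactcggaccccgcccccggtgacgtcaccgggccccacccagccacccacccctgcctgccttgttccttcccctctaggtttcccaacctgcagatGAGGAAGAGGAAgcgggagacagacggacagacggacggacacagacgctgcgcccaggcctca
Epor: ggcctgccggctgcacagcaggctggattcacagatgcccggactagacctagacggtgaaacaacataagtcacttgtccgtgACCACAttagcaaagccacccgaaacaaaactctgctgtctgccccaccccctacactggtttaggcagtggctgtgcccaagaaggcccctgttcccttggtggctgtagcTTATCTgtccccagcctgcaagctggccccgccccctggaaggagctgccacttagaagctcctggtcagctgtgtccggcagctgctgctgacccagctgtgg
Capitals in the Kit, Csf3r and Csf2ra sequences mark GAGGAA, the core letters bound by PU.1, an ETS factor of myeloid and B cells. In Epor they mark ACCACA, the reverse complement of the RUNX letters TGTGGT, and TTATCT, the reverse complement of the GATA letters AGATAA.

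The motif search covered both strands of 8 of the 9 receptor promoters (all but Csf2rb) for 4 motifs. GAGGAA occurred in 4 of these 8, those of Kit (first base at -223 from the start), Csf3r (-86), Csf2ra (-14 and -8, side by side) and Il6ra (-70). It occurred in 28.3% of all 27025 promoters of the same length. AGATAA occurred in Epor (-54) and Il6ra (-245), and in 11.4% of all promoters. TGTGGT occurred in Il7r (4) and Epor (-166), and in 16.9% of all promoters. The C/EBP letters TTGCNNAA occurred in Il7r (-174) and Il3ra (-134), and in 10.8% of all promoters. Flt3 had no match to the 4 motifs in this window. The matches in these promoters did not overlap each other (0 overlaps), and each describes letters, not binding.

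Of the 9 receptor genes, 4 rose in Cbx2-/- marrow (Kit, Csf3r, Csf2ra and Csf2rb), 0 fell and 5 did not pass (limma on log2(FPKM + 1), Benjamini-Hochberg adjusted p under 0.05). Among all tested genes 8.80% were called higher and 8.31% lower. These shares also stand beside the list counts below, and were 17.2% and 14.3% without Cbx2-/- replicate 3. At an unadjusted p under 0.05, 5 receptor genes were higher and 2 lower, against 17.4% and 15.1% of all tested genes. The median difference of the 9 genes was 0.68 on the log2(FPKM + 1) scale, where the median of all tested genes was 0.016. The 3 Cbx2-/- values all lay above the 3 wild type values in 5 receptor genes (21.4% of all tested genes) and all lay below them in 1, Epor (18.2% of all tested genes). The groups overlapped in Flt3, Il7r and Il3ra. Exact permutation tests, two-sided, of single genes cannot give a p under 0.1 with 3 against 3 libraries, and gave 0.1 for each of the 6 genes whose groups were separate. The p-values measure only the spread between these libraries. In whole marrow RNA, fewer cells of a type and less RNA per cell cannot be told apart, and this holds for every receptor.

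**Figure D1:**
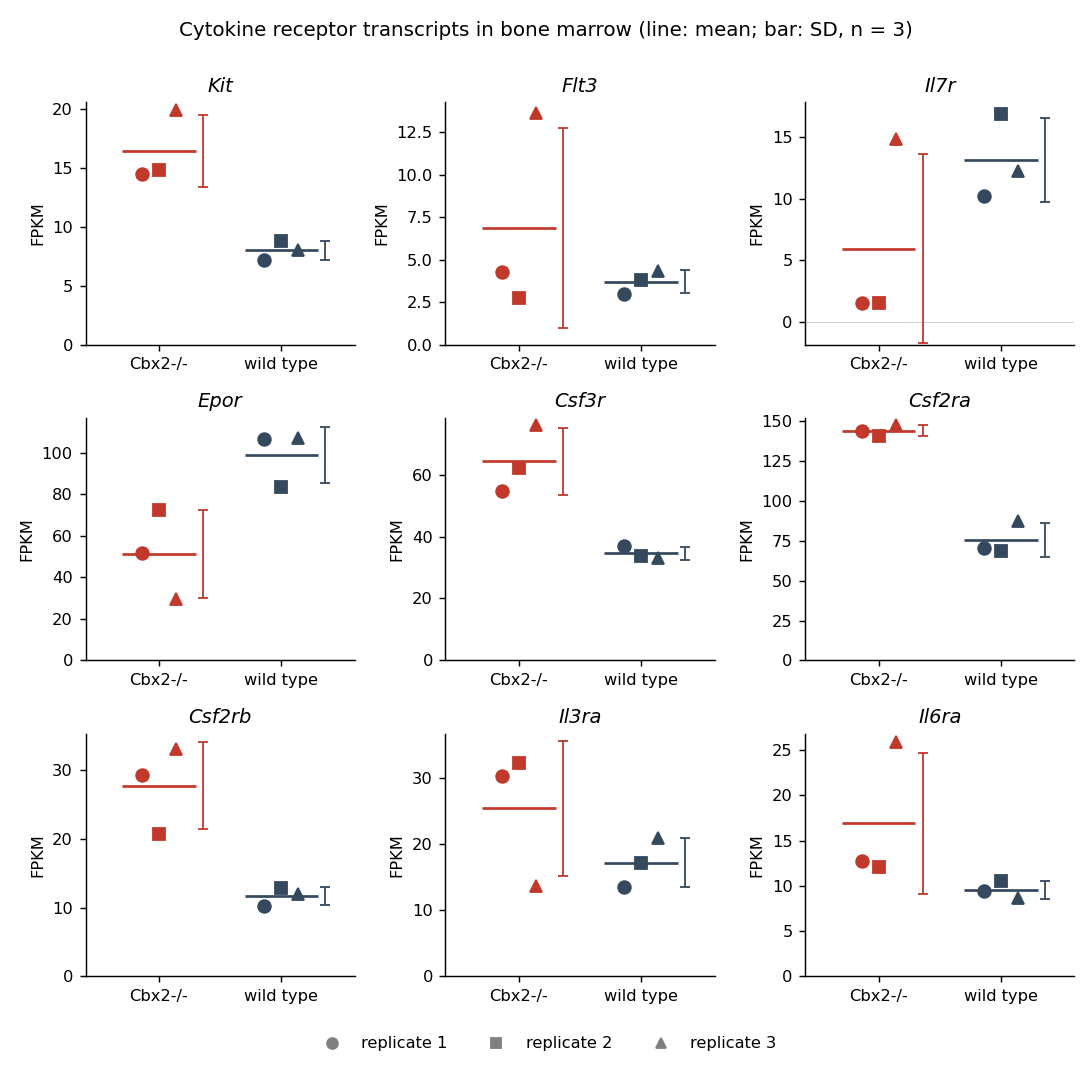
FPKM of the 9 receptor genes in each library, 1 panel a gene with its own axis from 0 or just below it, Cbx2-/- left and wild type right; points are libraries, lines are means and bars are SD (n = 3 each). Kit, Csf3r, Csf2ra, Csf2rb and Il6ra have all 3 Cbx2-/- points above the wild type points, Epor has them below, and the Il7r points of Cbx2-/- libraries lie at 1.51, 1.54 and 14.8 FPKM.

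The libraries had summed FPKM of 599601 to 741192 and 16140 to 16574 genes above 0. Correlations of log2 values were 0.946 to 0.987 within Cbx2-/- libraries, 0.986 to 0.989 within wild type libraries and 0.91 to 0.953 between the genotypes. Marker genes of marrow lineages were present in all libraries, with 16 maturing neutrophil genes summing to 59036 to 86675 FPKM in Cbx2-/- and 39130 to 44273 FPKM in wild type libraries. Cbx2 itself (chr11:119022962-119031270, plus strand) was at 2.11, 1.87 and 1.88 FPKM in Cbx2-/- libraries, against 2.90, 3.83 and 2.75 FPKM in wild type libraries (limma adjusted p = 0.0558), and which part of the transcript the allele removes is not described. Cbx2-/- replicate 3 stood apart from the other Cbx2-/- libraries. The 8 skeletal muscle genes summed to 431 and 488 FPKM in Cbx2-/- replicates 1 and 2 and to 14.6 FPKM in replicate 3, against 24.3 to 35.8 FPKM in wild type libraries. Haemoglobin genes took 10.9%, 7.02% and 20.5% of the summed FPKM in Cbx2-/- libraries, against 17.8%, 14.7% and 13.9% in wild type libraries. The part of muscle or haemoglobin transcripts in any receptor result was not tested. Alternative fits are counted below over the 17 that kept at least 2 libraries in each genotype. In 1 more, replicate 3 was the lone Cbx2-/- library, so its test rests on the spread of wild type libraries alone, and its p-values are not printed.

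Kit (chr5:75574916-75656722, plus strand), the stem cell factor receptor of stem cells, early progenitors and mast cells, was at 14.5, 14.8 and 19.9 FPKM in Cbx2-/- libraries, against 7.18, 8.78 and 8.06 FPKM in wild type libraries. Every Cbx2-/- library was above every wild type library, with replicate 3 the highest. Kit averaged 16.4 ± 3.05 FPKM in Cbx2-/- and 8.01 ± 0.804 FPKM in wild type marrow (SD, n = 3 each), 2.04-fold higher. On the log2 scale it rose by 0.94 ± 0.16 (SE; limma adjusted p = 0.0084). Kit was called in all 17 alternative fits, with adjusted p from 0.00245 to 0.0475.

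Flt3 (chr5:147330741-147400489, minus strand), the Flt3 ligand receptor of multipotent and lymphoid-primed progenitors and of dendritic cell precursors, did not follow Kit past the threshold. It was at 4.25, 2.72 and 13.6 FPKM in Cbx2-/- libraries, against 2.96, 3.82 and 4.32 FPKM in wild type libraries. Replicate 3 alone was high, at 3.91-fold the mean of the other Cbx2-/- libraries, and replicates 1 and 2 lay within or just below the wild type range. With all libraries the difference was 0.50 ± 0.45 (log2, SE; limma adjusted p = 0.497, exact permutation p = 0.7). Without replicate 3 it was -0.08 ± 0.19 (limma adjusted p = 0.778), and over the 17 alternative fits the adjusted p ran from 0.155 to 0.778. With replicate 3 as the lone Cbx2-/- library the difference was 1.65. Dendritic cells also carry Flt3, and of 5 tested dendritic cell genes 3 fell and 2 did not pass, with a median log2 difference of -1.08. When any 1 library was left out 2 to 3 fell, and 1 rose without Cbx2-/- replicate 3. Ly6d, Klk1 and Siglech fell, and Ly6d held most of the summed FPKM of the list in every library. The log2 difference of Ly6d was -2.96, where the early B genes below had a median of -2.50. Whether its fall belongs to dendritic cells was not tested. Klk1 was under 1 FPKM in every Cbx2-/- library and met the filter only through wild type libraries. Ccr9, Xcr1 and Clec9a were under the filter and not tested, at 0.395-, 0.886- and 0.920-fold of wild type. Zbtb46 and Cox6a2 did not pass and had higher means in Cbx2-/- marrow (log2 differences 0.16 and 0.37). The part of dendritic cell transcripts in the Flt3 values was not tested. Within each library, the log2 level of Kit exceeded that of Flt3 by 1.39 ± 0.80 in Cbx2-/- and by 0.95 ± 0.15 in wild type marrow (SD, n = 3 each), a genotype difference of 0.44 with overlapping groups (exact permutation p = 0.4) that was 0.88 without Cbx2-/- replicate 3 and 0.09 without Cbx2-/- replicate 2.

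Il7r (chr15:9505788-9530176, minus strand) encodes the alpha chain for interleukin-7, which B and T cell precursors require, and it is also present on mature T cells. It was at 1.54, 1.51 and 14.8 FPKM in Cbx2-/- libraries, against 10.2, 16.9 and 12.3 FPKM in wild type libraries. Replicates 1 and 2 lay far below all wild type libraries, while replicate 3, at 9.70-fold their mean, lay inside the wild type range. Over all libraries the log2 difference was -1.57 ± 0.65 (SE, limma adjusted p = 0.141, exact permutation p = 0.3). Without replicate 3, Il7r fell by 2.45 ± 0.19 log2 units (SE; limma adjusted p = 0.000139). With replicate 3 as the lone Cbx2-/- library the difference was 0.19. In the 17 alternative fits the adjusted p ran from 0.000139 to 0.34, and the fit without replicate 3 was the only one to call it.

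Marker genes of early B cells stayed below the wild type range in all Cbx2-/- libraries, replicate 3 included. All 15 fell (median log2 difference -2.50), also when any 1 library was left out, and they summed to 133, 119 and 240 FPKM in Cbx2-/- libraries, against 1126, 1373 and 1377 FPKM in wild type libraries. Vpreb1, a surrogate light chain gene of the pre-B cell receptor, was at 1.05, 0.547 and 0.255 FPKM in Cbx2-/- libraries, with its lowest value in replicate 3, against 37.7, 41.8 and 52.2 FPKM in wild type libraries. The 9 T cell genes summed to 29.0, 37.5 and 64.5 FPKM in Cbx2-/- libraries, with the highest value in replicate 3, against 28.6, 31.9 and 44.6 FPKM in wild type libraries. None of the 9 was at 0 in all libraries. The median log2 difference of the 9 was 0.46, and by limma 0 passed. At an unadjusted p under 0.05, 3 were higher and 0 lower, against 17.4% and 15.1% of all tested genes. In 4 all Cbx2-/- values lay above all wild type values (21.4% of all tested genes). Lck went the other way (log2 difference -0.37, limma adjusted p = 0.365). Without Cbx2-/- replicate 3, 1 T cell gene was called lower (14.3% of all tested genes), and with the replicate number as a block 1 was called higher. The part of T cell transcripts in the Il7r value of replicate 3 was not tested.

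Epor (chr9:21958897-21963506, minus strand), the erythropoietin receptor of red cell precursors, was at 51.6, 72.4 and 29.7 FPKM in Cbx2-/- libraries, against 106, 83.4 and 107 FPKM in wild type libraries. All Cbx2-/- libraries were below all wild type libraries, with replicate 3 the lowest. Epor averaged 51.2 ± 21.3 FPKM in Cbx2-/- and 98.9 ± 13.5 FPKM in wild type marrow (SD, n = 3 each), a 1.93-fold lower mean. The difference of -1.02 ± 0.31 (log2, SE) narrowly missed the threshold (limma adjusted p = 0.058). Epor was lower in all 17 alternative fits (-1.31 to -0.68) and passed in 5 of them (limma adjusted p = 0.0127 to 0.178), and with replicate 3 as the lone Cbx2-/- library the difference was -1.69. Without replicate 3 it fell by 0.68 ± 0.18 (SE, limma adjusted p = 0.0227), and with values rescaled without haemoglobin genes it fell by 1.03 ± 0.20 (SE, limma adjusted p = 0.0127). Of 20 erythroid genes, 17 fell and 3 did not pass, with a median log2 difference of -1.52. Among those 3, Car1 went the other way, at 662, 1107 and 260 FPKM in Cbx2-/- libraries. In wild type libraries it was at 265, 204 and 191 FPKM (log2 difference 1.40, limma adjusted p = 0.0839). Without Cbx2-/- replicate 3, with quantile normalization or with rescaling without haemoglobin genes, 1 erythroid gene was called higher. When 1 library was left out 11 to 19 fell, with 11 without wild type replicate 1. Replicate 3, with the lowest Epor, had the largest share of haemoglobin transcripts of all libraries.

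Csf3r (chr4:126024550-126044440, plus strand), the G-CSF receptor of neutrophils and their precursors, was at 54.7, 62.0 and 76.0 FPKM in Cbx2-/- libraries, against 36.8, 33.9 and 32.9 FPKM in wild type libraries. The groups were clear of each other, and the lowest Cbx2-/- library stood well above the highest wild type library. Csf3r averaged 64.2 ± 10.8 FPKM in Cbx2-/- and 34.5 ± 2.03 FPKM in wild type marrow (SD, n = 3 each), 1.86-fold higher. It rose by 0.86 ± 0.17 log2 units (SE; limma adjusted p = 0.0124, and 0.00292 to 0.0636 in the alternative fits). The call was lost when wild type replicate 1, 2 or 3 was left out (limma adjusted p = 0.052, 0.0632 and 0.0636), at differences of 0.83 to 0.91. Of 3676 stretches of 50 bases, the read length, along the annotated Csf3r transcripts, 385 (10.5%) also occur in another annotated gene, so part of its reads could be divided between genes.

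Csf2ra (chr19:61223957-61228429, minus strand), the ligand-binding chain for GM-CSF on myeloid cells, was at 144, 141 and 148 FPKM in Cbx2-/- libraries, against 70.2, 68.7 and 87.4 FPKM in wild type libraries. It had the closest agreement among Cbx2-/- libraries of any receptor here, with replicate 3 at 1.04-fold the mean of replicates 1 and 2. Csf2ra averaged 144 ± 3.54 FPKM in Cbx2-/- and 75.4 ± 10.4 FPKM in wild type marrow (SD, n = 3 each), 1.91-fold higher. The rise was 0.93 ± 0.17 log2 units (SE; limma adjusted p = 0.00929, and 0.00221 to 0.0578 in the alternative fits). Without wild type replicate 1 or 2 the adjusted p was 0.0578 and 0.0569, at differences of 0.89 and 0.87.

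Csf2rb (chr15:78325752-78353847, plus strand), the beta chain that carries the signal of GM-CSF, IL-3 and IL-5, was at 29.3, 20.8 and 33.2 FPKM in Cbx2-/- libraries, against 10.3, 12.8 and 12.0 FPKM in wild type libraries. The groups were separate. Csf2rb averaged 27.8 ± 6.35 FPKM in Cbx2-/- and 11.7 ± 1.28 FPKM in wild type marrow (SD, n = 3 each), 2.37-fold higher. This was a rise of 1.16 ± 0.19 log2 units (SE; limma adjusted p = 0.0075), and Csf2rb was called in all 17 alternative fits.

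The mouse has a close copy of this gene, Csf2rb2 (chr15:78282507-78305721, minus strand), whose product serves IL-3 only. Csf2rb2 was at 7.87, 5.59 and 6.31 FPKM in Cbx2-/- libraries, against 3.34, 2.98 and 3.36 FPKM in wild type libraries. It rose 2.04-fold (log2 difference 0.83 ± 0.15, SE, limma adjusted p = 0.0091), called in all 17 alternative fits. Of the 7268 stretches of read length in Csf2rb, 892 also occur in Csf2rb2. Of the 4836 in Csf2rb2, 912 (18.9%) occur in another gene. How reads were divided between the copies is therefore uncertain. The part of shared reads in the rise of each copy was not tested. Both lie on chromosome 15 in opposite orientation.

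The ratio of the chains of the GM-CSF receptor overlapped between the genotypes. The log2 level of Csf2rb minus that of Csf2ra was -2.36 ± 0.30 in Cbx2-/- and -2.59 ± 0.23 in wild type libraries (SD, n = 3 each; exact permutation p = 0.3). The genotype difference was 0.23, or 0.11 without Cbx2-/- replicate 3 and 0.40 without Cbx2-/- replicate 2. Csf2ra was the more abundant chain in every library, per transcript length. A p that misses the threshold does not show that the ratio was the same.

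Il3ra (chr14:14346275-14356011, plus strand), the ligand-binding chain for IL-3 on progenitors, basophils and mast cells, was at 30.2, 32.2 and 13.7 FPKM in Cbx2-/- libraries, against 13.5, 17.1 and 20.8 FPKM in wild type libraries. Replicates 1 and 2 exceeded all wild type libraries, and replicate 3 lay at the lower end of the wild type range. Over all libraries the difference was 0.47 ± 0.32 (log2, SE; limma adjusted p = 0.36, exact permutation p = 0.3). Without replicate 3 it rose by 0.85 ± 0.17 (SE, limma adjusted p = 0.0083), and with replicate 3 as the lone Cbx2-/- library the difference was -0.29. The adjusted p ran from 0.0083 to 0.674 over the 17 alternative fits, and the fit without replicate 3 was the only one to call it. The 7 promyelocyte genes also had their lowest Cbx2-/- sum in replicate 3, at 5022, 4469 and 2345 FPKM in Cbx2-/- libraries, against 1893 to 2100 FPKM in wild type libraries, and their part in the Il3ra values was not tested. Of these 7 genes, 4 rose and 3 did not pass, with a median of 0.98. The count was 7 without Cbx2-/- replicate 3, 2 without Cbx2-/- replicate 1 or wild type replicate 1, and 1 without wild type replicate 2 or 3. The difference Il3ra minus Csf2rb was -0.19 ± 0.93 in Cbx2-/- and 0.50 ± 0.22 in wild type libraries (log2, SD, n = 3 each, exact permutation p = 0.3). The genotype difference of -0.69 was -0.18 without Cbx2-/- replicate 3 and -1.09 without Cbx2-/- replicate 2.

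Il6ra (chr3:89864059-89913196, minus strand), the IL-6 binding chain of monocytes, neutrophils and some lymphocytes, was at 12.7, 12.1 and 25.9 FPKM in Cbx2-/- libraries, against 9.48, 10.6 and 8.63 FPKM in wild type libraries. The groups were separate, with replicates 1 and 2 just above the wild type range and replicate 3 well above it. Il6ra averaged 16.9 ± 7.82 FPKM in Cbx2-/- and 9.56 ± 0.986 FPKM in wild type marrow (SD, n = 3 each). The log2 difference of 0.68 ± 0.27 (SE) did not pass (limma adjusted p = 0.127). It was 0.35 ± 0.12 without replicate 3 (limma adjusted p = 0.0636) and 1.35 with replicate 3 as the lone Cbx2-/- library. Il6ra passed in 0 of the 17 alternative fits (limma adjusted p = 0.0636 to 0.301). Of 15 monocyte and macrophage genes, 6 rose and 9 did not pass, with a median of 0.62. All Cbx2-/- values lay above all wild type values in 11 (21.4% of all tested genes). They lay below in 2, Irf8 and Cx3cr1 (18.2% of all tested genes). The count of 6 was 0 without wild type replicate 1, 2 or 3 and with the replicate number as a block. It was 1 without Cbx2-/- replicate 1, with the sex covariate or with no filter. Without Cbx2-/- replicate 3, 9 rose and 2 fell. In the annotation (GENCODE vM21, GRCm38), Flt3, Il3ra and Il6ra each overlap 1 antisense gene, and no source used here states the strand setting of the quantification.

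**Figure D2:**
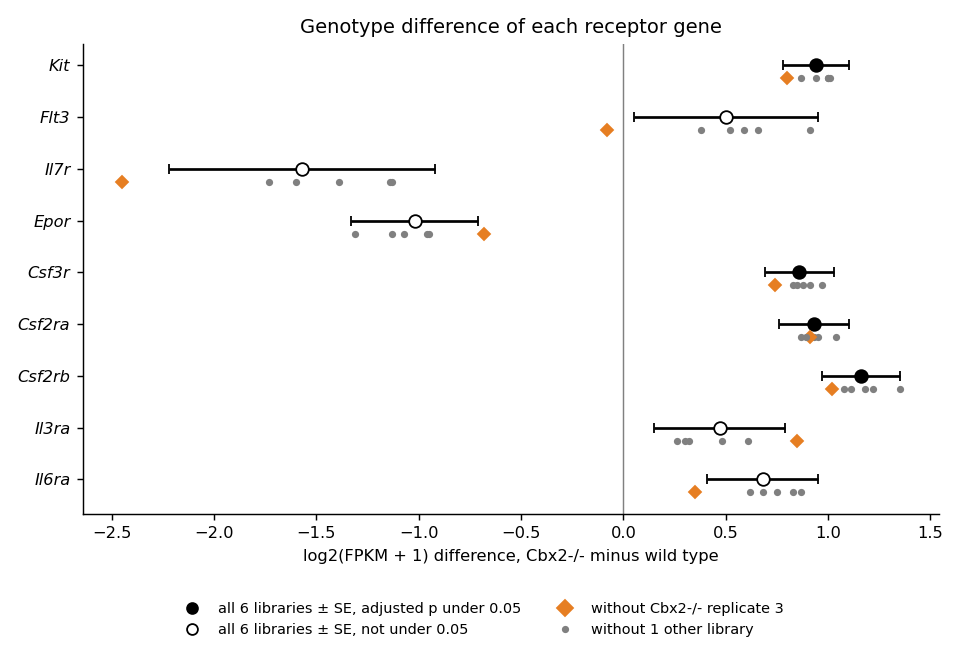
Genotype difference, Cbx2-/- minus wild type, of each receptor gene in log2(FPKM + 1), with all libraries (circles, bars: SE), without Cbx2-/- replicate 3 (diamonds) and without each other library (dots). Kit, Csf3r, Csf2ra and Csf2rb lie to the right of 0 in each, at 0.86 to 1.16 with all libraries, while Il7r lies between -2.45 and -1.13.

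The spread among Cbx2-/- libraries divided the receptors. Cbx2-/- replicate 3 lay outside the range of the other 5 libraries in 7 of the 9 genes, a pattern that 59.6% of all tested genes shared. It was the highest library for Kit, Flt3, Csf3r, Csf2ra, Csf2rb and Il6ra. Without it, 5 receptor genes rose and 2 fell, against backgrounds of 17.2% and 14.3%, with Il3ra joining the higher genes and Il7r and Epor called lower. Kit, Csf3r, Csf2ra and Csf2rb were called higher with and without it. The fit without replicate 3 rests on Cbx2-/- replicates 1 and 2, the libraries with muscle transcripts (431 and 488 FPKM). The part of these transcripts in its calls was not tested. The fit on replicate 3 and the wild type libraries put 6 receptor genes past the threshold on the higher side and 1 on the lower, against backgrounds of 17.0% and 22.6%, with no spread among Cbx2-/- libraries behind these calls.

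The order of mean receptor levels, which FPKM allows because it is scaled to length, differed between the genotypes. In Cbx2-/- marrow Csf2ra led at 144 ± 3.54 FPKM, with its range above that of Csf3r at 64.2 ± 10.8 FPKM. Epor, Csf2rb, Il3ra, Il6ra and Kit followed, and neighbours among these, Csf3r included, had overlapping ranges. Kit lay above Flt3 (6.86 ± 5.90 FPKM), which overlapped with Il7r (5.95 ± 7.66 FPKM). In wild type marrow Epor (98.9 ± 13.5 FPKM) and Csf2ra (75.4 ± 10.4 FPKM) overlapped at the top, with Csf3r (34.5 ± 2.03 FPKM) separate below them. Il3ra, Il7r, Csf2rb, Il6ra and Kit overlapped from neighbour to neighbour, and Flt3 was lowest at 3.70 ± 0.690 FPKM, clear of Kit.

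Within each library, the neutrophil receptor was set against the erythroid receptor. Csf3r minus Epor was 0.08, -0.22 and 1.33 log2 units in Cbx2-/- libraries, against -1.50, -1.28 and -1.67 in wild type libraries. Epor thus exceeded Csf3r in every wild type library, while in Cbx2-/- libraries the genes were close in replicates 1 and 2 and Csf3r was higher in replicate 3. The genotype difference was 1.88 with separate groups (exact permutation p = 0.1, 0.433 after adjustment over 13 within-library comparisons), and 1.42 without Cbx2-/- replicate 3.

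Each receptor was also set against marker genes of a lineage that carries it, as its log2 level minus the mean log2 level of those genes in the same library. The granulocyte receptors were set against 16 maturing neutrophil genes, of which 8 rose and 8 did not pass, with a median of 0.86. The count was 15 without Cbx2-/- replicate 3, 5 without Cbx2-/- replicate 1 or wild type replicate 1, and 3 without wild type replicate 2 or 3. The genotype differences of this measure, Cbx2-/- minus wild type, were -0.11 for Csf3r, -0.04 for Csf2ra and 0.19 for Csf2rb, all with overlapping groups (exact permutation p = 0.5, 1.0 and 0.5). Without Cbx2-/- replicate 3 they were -0.24, -0.06 and 0.05. Without wild type replicate 3 the difference for Csf2ra was 0.07. Against the list's median in place of its mean they were 0.21, 0.27 and 0.50.

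Kit minus the stem and progenitor list was 0.93 ± 0.19 in Cbx2-/- and 0.06 ± 0.16 in wild type libraries (log2, SD, n = 3 each), a genotype difference of 0.88 with separate groups (exact permutation p = 0.1, adjusted 0.433), 0.77 without Cbx2-/- replicate 3, or 0.34 against the list's median. Of the 16 tested genes of this list, Gata2 and Angpt1 rose, Tal1 and Lmo2 fell and 12 did not pass, with a median of 0.08. When 1 library was left out 1 to 3 rose and 0 to 3 fell, with 0 falling without Cbx2-/- replicate 1 or wild type replicate 1 or 2. Gata2, a transcription factor of stem cells and mast cells, was at 9.79 ± 0.716 FPKM in Cbx2-/- and 5.29 ± 0.278 FPKM in wild type marrow (limma adjusted p = 0.006). Tal1, which also acts in red cell precursors, fell to 33.0 ± 9.23 FPKM in Cbx2-/- marrow, against 71.4 ± 13.4 FPKM in wild type marrow (limma adjusted p = 0.0194). Kit is also a mast cell gene, and Cpa3, a mast cell protease, averaged 7.12 ± 2.24 FPKM in Cbx2-/- and 5.20 ± 0.413 FPKM in wild type marrow (SD, n = 3 each; limma adjusted p = 0.264). From the eosinophil, basophil and mast cell list, Ms4a2 averaged 2.13 FPKM in Cbx2-/- and 1.47 FPKM in wild type marrow (limma adjusted p = 0.253). Fcer1a, Mcpt4, Tpsb2 and Cma1 were under the filter and not tested. Their groups overlapped, at 1.03-, 0.802-, 1.04- and 0.760-fold of wild type. The part of mast cell transcripts in the Kit values was not tested. Of the 8 tested genes of the eosinophil, basophil and mast cell list, 5 fell, and these belong to eosinophils (Epx, Prg2, Prg3) and basophils (Mcpt8, Prss34). The median was -0.92, and 0 fell without wild type replicate 3 and 3 without Cbx2-/- replicate 1 or wild type replicate 1. Siglecf, an eosinophil surface gene of the same list, went the other way without passing. It was at 2.89, 3.47 and 2.77 FPKM in Cbx2-/- libraries, against 2.59, 2.39 and 2.51 FPKM in wild type libraries (log2 difference 0.21, limma adjusted p = 0.318).

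Il7r minus the early B list was -0.92, -0.68 and 1.38 in Cbx2-/- libraries, against -1.70, -1.30 and -1.63 in wild type libraries. The groups were separate, so in every Cbx2-/- library Il7r was lower by less than the mean of the early B genes, or not lower. This holds for the mean and not for each gene. Over all libraries the log2 difference was -1.05 for Ebf1 and -1.57 for Il7r. The genotype difference against the list mean was 1.47 (exact permutation p = 0.1, adjusted 0.433). Without Cbx2-/- replicate 3 the difference was 0.74. Epor minus the erythroid list was -0.63 ± 0.37 in Cbx2-/- and -0.96 ± 0.25 in wild type libraries (SD, n = 3 each), with overlapping groups (genotype difference 0.34, exact permutation p = 0.3), and the difference was 0.55 without Cbx2-/- replicate 3, 0.20 without Cbx2-/- replicate 2 and 0.22 without wild type replicate 2. Flt3 differed by 0.44 against the stem and progenitor list (exact permutation p = 0.7), Il3ra by -0.55 against the promyelocyte list (p = 0.2) and Il6ra by 0.20 against the monocyte and macrophage list (p = 0.7), each with overlapping groups. Without Cbx2-/- replicate 3 these were -0.11 for Flt3, -0.45 for Il3ra and -0.03 for Il6ra. Flt3 was at 0.83 without Cbx2-/- replicate 2 and 0.29 without wild type replicate 1, Il6ra at 0.36 without Cbx2-/- replicate 1, and Il3ra at -0.36 without wild type replicate 3.

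**Figure D3:**
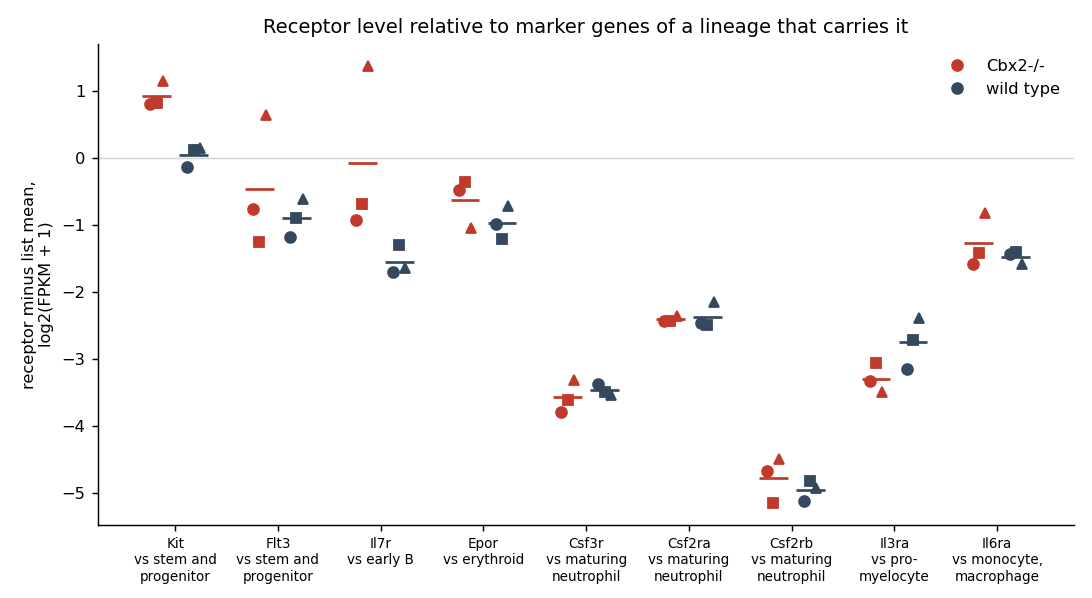
Level of each receptor in log2(FPKM + 1) minus the mean of the marker genes of a lineage that carries it, per library, Cbx2-/- left of wild type for each gene. Kit and Il7r have all Cbx2-/- points above the wild type points, by 0.88 and 1.47 on average (0.77 and 0.74 without Cbx2-/- replicate 3), and the other 7 receptors overlap.

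The ligands of these receptors come from stromal, endothelial, kidney and immune cells. Of the 10 ligand genes, 2 could be tested. Kitl, stem cell factor, was at 11.5, 11.5 and 15.8 FPKM in Cbx2-/- libraries, against 5.44, 7.96 and 5.25 FPKM in wild type libraries. Ligand and receptor thus both rose, Kitl 2.09-fold (log2 difference 0.96 ± 0.19, SE, limma adjusted p = 0.0142) and Kit 2.04-fold. The Kitl call was lost in 3 of the 17 alternative fits, those without wild type replicate 1 or 3 among them, with adjusted p from 0.00923 to 0.0681. Kitl is a product of endothelial and stromal cells, and 5 of 8 endothelial genes and 2 of 7 stromal genes rose, with medians of 1.05 and 0.62. Of all tested genes 8.80% were called higher. When 1 library was left out 4 to 6 endothelial genes and 0 to 3 stromal genes rose. For stromal genes this was 0 without Cbx2-/- replicate 1 or wild type replicate 1 or 3, and 1 without wild type replicate 2. Without Cbx2-/- replicate 3, 1 stromal gene fell. The part of endothelial and stromal cells in the Kitl result was not tested.

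Flt3l, Flt3 ligand, averaged 14.4 ± 3.96 FPKM in Cbx2-/- and 11.2 ± 1.49 FPKM in wild type marrow (SD, n = 3 each; limma adjusted p = 0.336). Il7 was at 0.597, 1.59 and 0.254 FPKM in Cbx2-/- libraries, against 0.883, 1.04 and 0.975 FPKM in wild type libraries. Tslp, which also signals through Il7r, was at 0.592, 0.486 and 2.09 FPKM in Cbx2-/- libraries, against 0.453, 0.549 and 0.767 FPKM in wild type libraries. Both were under the filter and were not tested, and their groups overlapped. Csf3, Il5 and Il6 did not exceed 0.337 FPKM in any library, and Epo, Csf2 and Il3 were listed at 0 in all 6.

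The chains that complete these receptors were higher in 3 of 4 tested cases, and in 1 without wild type replicate 3. Of all tested genes 8.80% were called higher. Il6st, the gp130 chain shared by the IL-6 family, was at 28.2, 19.1 and 21.2 FPKM in Cbx2-/- libraries, against 12.1, 10.9 and 10.3 FPKM in wild type libraries. All Cbx2-/- libraries were higher, so the signalling chain of the IL-6 receptor rose 2.06-fold (log2 difference 0.96 ± 0.17, SE, limma adjusted p = 0.00941) where Il6ra did not pass. Its adjusted p was 0.0505 without wild type replicate 3, the highest of the alternative fits (lowest 0.00374). Crlf2, which joins Il7r to form the TSLP receptor, rose to 67.5 ± 12.6 FPKM in Cbx2-/- marrow, against 39.6 ± 6.74 FPKM in wild type marrow (SD, n = 3 each; limma adjusted p = 0.0399), a call lost in 8 of 17 alternative fits. Il2rg, the common gamma chain that joins Il7r to form the IL-7 receptor, was at 16.0 ± 1.85 FPKM in Cbx2-/- and 22.4 ± 4.72 FPKM in wild type marrow (limma adjusted p = 0.145). Il5ra, under the filter, averaged 0.690 FPKM in Cbx2-/- and 0.748 FPKM in wild type marrow.

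Of 25 other cytokine receptor genes, 21 were tested, 8 rose and 2 fell, with a median log2 difference of 0.38. Of all tested genes 8.80% were called higher and 8.31% lower. Without wild type replicate 1, 2 or 3 the higher count was 3, 5 and 4, and the lower count was 1 without wild type replicate 3 and 3 without Cbx2-/- replicate 3. Ghr, the growth hormone receptor, was at 13.2, 16.3 and 29.7 FPKM in Cbx2-/- libraries, against 2.99, 4.13 and 3.02 FPKM in wild type libraries. It rose 5.84-fold (log2 difference 2.17 ± 0.28, SE, limma adjusted p = 0.00281). Ifngr1, the ligand-binding chain for interferon gamma, was at 103 ± 3.72 FPKM in Cbx2-/- and 51.0 ± 1.92 FPKM in wild type marrow (limma adjusted p = 0.00416). Il20rb rose to 2.02 ± 0.383 FPKM in Cbx2-/- marrow, against 0.429 ± 0.184 FPKM in wild type marrow (limma adjusted p = 0.00553). Its wild type values were all under 1 FPKM, so it met the filter only through the Cbx2-/- libraries. Il2ra, the IL-2 receptor alpha chain present on some B cell precursors, fell to 0.286 ± 0.104 FPKM in Cbx2-/- marrow, against 2.31 ± 0.505 FPKM in wild type marrow (limma adjusted p = 0.00221). Its Cbx2-/- values were all under 1 FPKM, so it met the filter only through the wild type libraries. Il20rb and Il2ra are counted among the 8 that rose and the 2 that fell. The other 11 did not pass, including Csf1r, the M-CSF receptor, at 42.6 ± 10.2 FPKM in Cbx2-/- marrow, against 34.7 ± 1.56 FPKM in wild type marrow (limma adjusted p = 0.385).

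**Figure D4:**
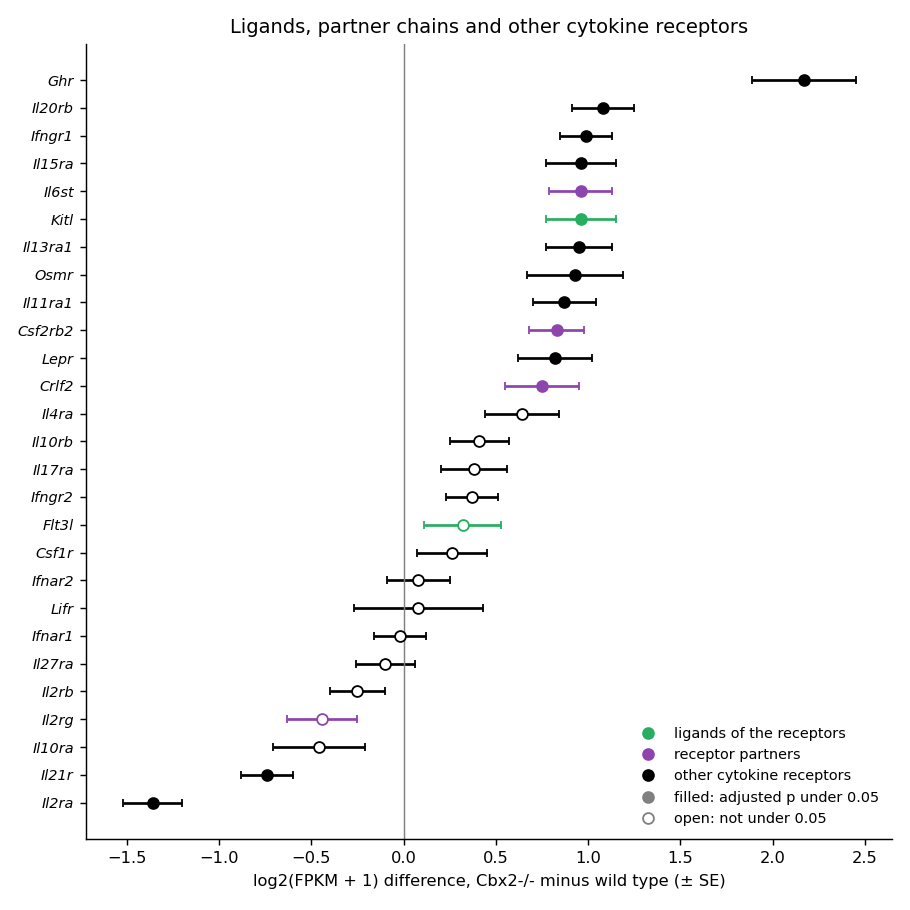
Genotype difference, Cbx2-/- minus wild type, in log2(FPKM + 1) with SE, for the tested ligands, partner chains and other cytokine receptors. Ghr lies farthest to the right at 2.17 and Il2ra farthest to the left at -1.36, with Kitl and Il6st both at 0.96. Il2ra was under 1 FPKM in every Cbx2-/- library and Il20rb in every wild type library.

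Of 10 JAK and STAT genes analysed here, Jak3, Stat3 and Stat5b rose and 7 did not pass, with a median of 0.32. Of all tested genes 8.80% were called higher. Stat5b, a main carrier of Epor, Il7r and Csf2rb signals, was at 21.8 ± 1.47 FPKM in Cbx2-/- and 15.3 ± 0.0869 FPKM in wild type marrow (limma adjusted p = 0.0369). Stat3, used by Csf3r and Il6st, was at 37.5 ± 10.9 FPKM in Cbx2-/- and 21.5 ± 0.870 FPKM in wild type marrow (limma adjusted p = 0.0448). These 3 calls were each lost in 8 to 10 of the 17 alternative fits. The count was 0 without Cbx2-/- replicate 1 and without wild type replicate 1, 2 or 3. Without Cbx2-/- replicate 3, 4 rose and 2 fell, against 17.2% and 14.3% of all tested genes.

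Of 20 inhibitors of receptor signalling, 2 rose and 18 did not pass, with a median of 0.16. That is close to the 8.80% of all tested genes called higher. Socs3, which binds Csf3r and gp130 and is induced through Stat3, was at 12.0, 9.21 and 10.3 FPKM in Cbx2-/- libraries, against 3.43, 3.57 and 5.84 FPKM in wild type libraries. It rose 2.45-fold with separate groups (log2 difference 1.15 ± 0.20, SE, limma adjusted p = 0.00824), called in all 17 alternative fits. Cish, a feedback inhibitor induced through Stat5, was at 3.17 ± 0.324 FPKM in Cbx2-/- and 1.69 ± 0.325 FPKM in wild type marrow (limma adjusted p = 0.0221), a call lost in 6 of the 17. The count of 2 was 1 without Cbx2-/- replicate 1 or 2 or wild type replicate 2 or 3.

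Genes known as STAT5 targets moved both ways. Of 12, Cish, Osm and Id1 rose, Pim2, Bcl2l1 and Tfrc fell and 6 did not pass, with a median of 0.08. Of all tested genes 8.80% were called higher and 8.31% lower. When 1 library was left out 1 to 4 rose, with 1 without Cbx2-/- replicate 1 or wild type replicate 2, and 3 fell throughout. Bcl2l1, a survival gene of red cell precursors, was at 45.3, 38.5 and 61.0 FPKM in Cbx2-/- libraries, against 108, 112 and 101 FPKM in wild type libraries. Tfrc, the transferrin receptor, which is also among the 20 erythroid genes, fell to 56.3 ± 10.9 FPKM in Cbx2-/- marrow, against 167 ± 22.1 FPKM in wild type marrow (limma adjusted p = 0.00289). Pim2 was 2.29-fold lower and Id1 2.01-fold higher (limma adjusted p = 0.00822 and 0.00493).

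For each receptor, the genes with the most similar profile over the 6 libraries were taken from 8279 tested genes with a mean of at least 5 FPKM. The measure was the root-mean-square difference of log2 levels, each centred on its own mean. Kit was nearest to Igsf6 (0.0571), Aifm2 (0.0599) and Man2b1 (0.0604), and Csf3r to Orai2 (0.0535), Ctnnbip1 and Fcgr3. Csf2ra was nearest to Ncf4 (0.0687), an NADPH oxidase subunit of phagocytes, and to Fes and Arhgap9. Csf2rb was nearest to Abcg1 (0.0968), Tgfbi and Plau, and Il6ra to Pdlim5 (0.0587), Slc28a2 and Pik3r5.

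Flt3 was nearest to Pdk4 (0.104), Tnrc6a and Dgka, and Il3ra to Hpn (0.0861), Cox18 and Acaa2. Epor was nearest to Cmc2 (0.0839), Tmem107 and Smim1. Il7r was farther from every other gene than the other receptors were: its nearest, Slfn14, differed by 0.378, followed by Nbl1 (0.399) and Tmcc2 (0.416). Slfn14 was at 6.84, 5.81 and 20.6 FPKM in Cbx2-/- libraries, against 27.9, 35.7 and 27.6 FPKM in wild type libraries, so its replicate 3 was also the highest Cbx2-/- library but did not reach the wild type range.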

How the data were processed

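RNA from tibial and femoral marrow of 3 Cbx2-/- and 3 wild type mice was sequenced as 50-base single-end reads from stranded poly(A) libraries, per the labels' protocols. Per the submitters' processing notes, the build was mm10 and the tools included TopHat2 2.1.0, Cufflinks 2.2.1 and FastQC 0.11.5, with no roles given. The authors deposited FPKM values per gene for 6 libraries. Gene annotation, strand setting and read totals were not given in the sources used here. Ratios of the lowest values put relative library depth between 0.912 and 1.22, with wild type replicate 1 as the unit. No count test was run.

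Values were analysed as log2(FPKM + 1), a scale on which changes at low levels are understated. The test took genes that reached 1 FPKM in 3 or more libraries and used limma 3.58.1 under R 4.3.3 (moderated variance with trend, two-sided, no covariate, Benjamini-Hochberg over 12006 genes, threshold 0.05), tested on simulated data. Folds are ratios of mean FPKM. Within-library differences were compared by exact permutation tests (scipy 1.17.1). Of 18 alternative fits, 6 left out 1 library each; the others changed pseudocount, filter, scaling, limma settings, block, sex covariate or both libraries with muscle transcripts. Replicate 1 of each genotype had the male pattern of sex-linked transcripts.

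The receptors and 20 lists of 251 distinct genes were chosen with earlier results of these data known. Some genes of these lists are not reported here and were left out of the list counts. The rule for named genes took all receptors, ligands and partner chains, Csf1r, up to 4 called genes with the lowest adjusted p of each other list, and 3 nearest profiles for each receptor, with Cbx2 as the targeted gene. Some further list members, Cpa3 among them, are named outside this rule. Gene positions are from GENCODE vM21 (GRCm38), counted from 1. Motif matches were sought in RefSeq promoters. Figures were drawn with matplotlib 3.10.9.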

Additional observations from a re-analysis of the deposited data

How the results depend on the processing

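The 4 receptor genes called higher stayed 4 under every change of pseudocount, filter, scaling and limma setting, the sex covariate and the replicate block, and were 2 to 5 when 1 library was left out. With both Cbx2-/- libraries that hold muscle transcripts left out they were 6, with the spread taken from wild type libraries alone. The receptor genes called lower, 0 with all libraries, were 1 with median-of-ratios scaling, quantile normalization, rescaling without haemoglobin genes and both muscle-bearing libraries left out, in each case Epor, and 0 to 2 when 1 library was left out. Over all genes, 1057 were higher and 998 lower. Rescaling without haemoglobin genes gave 598 higher, both muscle-bearing libraries left out gave 2047 higher and 2714 lower, and leaving out 1 library gave 367 to 2069 higher and 475 to 1719 lower. Of the listed genes, 46 were higher and 46 lower; 82 were higher without both muscle-bearing libraries, and leaving out 1 library gave 17 to 74. Signs turned for Flt3 without Cbx2-/- replicate 3 (-0.08, with 0.91 the highest when another library was left out), and for Il7r (0.19), Il3ra (-0.29) and Flt3l (-0.05) with both muscle-bearing libraries left out, none of them called. Against the list median in place of its mean, the genotype differences were 0.34 for Kit, 0.21 for Csf3r, 0.27 for Csf2ra, 0.50 for Csf2rb and -0.96 for Il3ra. The cause of these shifts was not tested.

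The replicate numbers do not pair the animals in the labels, and same-numbered libraries did not deviate together in every pair (r of deviations 0.194, -0.179 and -0.103). With the replicate block, 634 genes were higher and 734 lower over all genes, and 29 of the listed genes were higher. Kit, Csf3r, Csf2ra and Csf2rb remained called (limma adjusted p = 0.0223, 0.0441, 0.0368 and 0.0223) and Epor did not pass (0.0944). Groups of 3 and values without read counts limit precision, and no interval for counting error could be given.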
